A study of Mus musculus with 6 samples.

Results

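The Kruppel-like factors described here were 10 genes of 1 transcription factor family, Klf2, Klf3, Klf4, Klf6, Klf7, Klf9, Klf10, Klf13, Klf15 and Klf16, measured in the brains of mice fed a diet with or without the protease-treated porcine liver decomposition product (PLDP). They were chosen by name out of the 60354 features counted in each brain, to set Klf2 and Klf4, known from blood vessels, against the other 8. The choice was made with the diet contrast of these same brains in view, so the members' differences between the diets are given as a description. Calls by a test are counted for them only beside the share of all features, and nothing is supported with those counts. All 10 passed the filter on low counts, which 18580 features passed.

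Whole-brain RNA was measured in mice numbered 2, 5 and 10 of the control diet (3 mice) and 17, 22 and 26 of the PLDP diet (3 mice), all of them C57BL/6NCrSlc males that were 16 weeks old when the diets began. The PLDP mice ate a modified AIN-93M diet in which PLDP made up 20%, and the control mice ate a modified AIN-93M diet of adjusted calories. Both diets lasted 16 weeks and were followed by behavioral tests, during which no PLDP diet was given, and RNA was taken once the tests were over. The RNA of each mouse was therefore measured after a period without PLDP, in tissue that mixed all brain regions and all cell types.

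Total counts per mouse ranged from 18797061 to 23938729. PLDP mouse 17 stood apart from the other PLDP mice. The chi-square per degree of freedom over genes was 4.90 between mice 17 and 22 and 4.64 between mice 17 and 26, against 2.32 between mice 22 and 26 and 2.25 to 2.93 between the control mice. Values without this mouse are given for the Klf members that moved with it.

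Kruppel-like factors bind GC-rich and CACCC-type sequences through zinc fingers at the end of the protein and activate or repress genes through cofactors bound elsewhere in the protein. Klf2 and Klf4 are induced in endothelial cells by the shear of flowing blood, through a kinase cascade that ends in MEF2 factors, and they keep the endothelium quiescent and resistant to clotting. Others of the family are known in neurons, where they promote or hold back axon growth, and in the response to thyroid hormone and glucocorticoids.

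The promoters of 8 of the 10 members were found in RefSeq sequence of build GRCm38.p6. Of these, 4 are printed from 250 to 31 bases before the start site, 5′ to 3′ on the gene's strand: Klf2 (chr8:72318812-72319031, plus strand) and Klf4 (chr4:55532506-55532725, minus strand) because they differed most between the diets, Klf13 (chr7:63938946-63939165, minus strand) because it differed most among the other members, and Klf9 (chr19:23140976-23141195, plus strand) because it had the highest level. Capitals mark the motifs that were searched for.
Klf2: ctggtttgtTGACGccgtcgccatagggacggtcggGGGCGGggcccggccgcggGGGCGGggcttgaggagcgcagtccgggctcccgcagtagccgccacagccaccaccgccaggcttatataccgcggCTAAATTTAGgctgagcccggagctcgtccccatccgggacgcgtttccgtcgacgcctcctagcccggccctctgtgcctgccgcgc
Klf4: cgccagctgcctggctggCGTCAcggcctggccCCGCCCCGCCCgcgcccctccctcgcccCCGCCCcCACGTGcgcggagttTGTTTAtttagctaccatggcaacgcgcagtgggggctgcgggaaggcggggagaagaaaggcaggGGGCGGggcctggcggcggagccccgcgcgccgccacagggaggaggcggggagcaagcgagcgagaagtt
Klf13: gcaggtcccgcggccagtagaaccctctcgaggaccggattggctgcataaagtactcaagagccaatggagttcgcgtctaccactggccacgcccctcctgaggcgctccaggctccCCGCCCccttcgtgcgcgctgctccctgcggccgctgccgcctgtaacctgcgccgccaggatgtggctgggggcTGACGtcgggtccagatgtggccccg
Klf9: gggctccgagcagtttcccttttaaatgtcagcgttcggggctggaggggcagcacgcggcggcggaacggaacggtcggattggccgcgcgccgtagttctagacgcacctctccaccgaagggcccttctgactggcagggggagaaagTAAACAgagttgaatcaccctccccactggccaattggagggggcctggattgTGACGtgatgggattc

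The Klf2 promoter held a match to the MEF2 motif, CTAAATTTAG, from 118 to 109 bases before the start, the only MEF2 match among the 8 promoters. The MEF2 motif was present in 2.6% of the 32851 promoters of the same length. Klf2 also held 2 GC boxes (GGGCGG, in 28.5% of promoters). The Klf4 promoter held 4 GC boxes, of which 2 shared a base, and an E-box (CACGTG, in 5.01% of promoters) 182 to 177 bases before the start. It also held a forkhead core (TGTTTA, in 11% of promoters). Other members shared these motifs. GC boxes were in all of the 8 promoters but that of Klf9, E-boxes were also in Klf6 and Klf15, and a forkhead core was also in Klf9. The short cyclic AMP response core (TGACG, in 14.8% of promoters) was present in Klf2, Klf4, Klf9, Klf13 and Klf15, while the full element (TGACGTCA, in 1.14%), which contains that core, was in none of the 8. All motifs were read on both strands. The promoters of Klf3 and Klf7 held 3 CACCC boxes each (CCACCC, in 25.0% of promoters). No match to the glucocorticoid response element, which was in 0.362% of promoters, to the TATA box (TATAAA, in 9.95%) or to the CArG box, which was in 1.3%, lay in these windows. The windows end 31 bases before the start, so a TATA box nearer to the start would not be seen. GC content was between 60% and 79.1% in the 8 members, against a median of 51.8% over all promoters. These matches describe the letters in the windows and do not show that a factor binds there.

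Klf2, a factor of quiescent endothelium and of resting lymphocytes, was higher in all 3 PLDP brains than in any control brain. Its normalised read count was 14.3, 12.7 and 12.8 CPM (the count scaled to a common library size) in control mice 2, 5 and 10. It was 16.0, 27.0 and 25.1 CPM in PLDP mice 17, 22 and 26. Mice 22 and 26 were far above the controls, and mouse 17 was only just above the highest control. The means were 13.3 ± 0.928 CPM (SD, n = 3) in control mice and 22.7 ± 5.85 CPM (SD, n = 3) in PLDP mice, a log2 fold change of 0.78 (SE 0.14). Without mouse 17 the log2 fold change was 0.98, and over the 6 fits that each left out 1 mouse it ranged from 0.62 to 0.98.

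Klf4, which acts with Klf2 in endothelium and is also a factor of pluripotent stem cells, had the same order among the PLDP mice. It was measured at 8.37, 7.85 and 7.13 CPM in control mice 2, 5 and 10. In PLDP mice 17, 22 and 26 it was 8.97, 19.0 and 14.5 CPM. The groups did not overlap, although mouse 17 again lay close to the controls. Group means were 7.78 ± 0.623 CPM (SD, n = 3) and 14.2 ± 5.04 CPM (SD, n = 3), and the log2 fold change was 0.87 (SE 0.19). It was 1.12 without mouse 17 and 0.58 without mouse 22, so that the size of the difference rested on which PLDP mice were included.

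**Figure D1:**
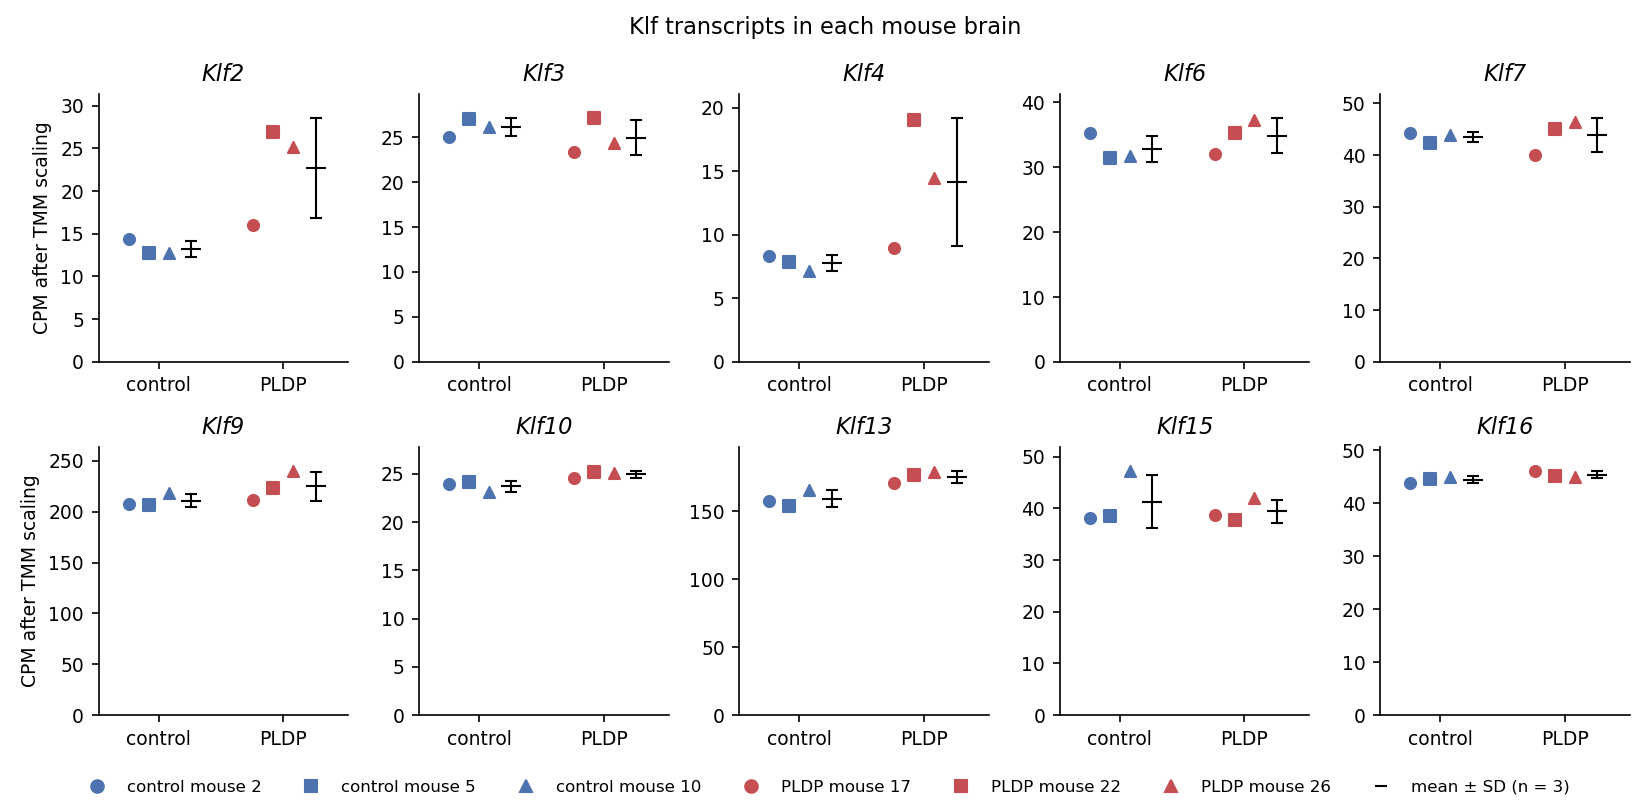
Normalised read count (CPM after TMM scaling, linear axes from 0) of the 10 Klf members, with 1 point per mouse and the mean ± SD (n = 3) beside each group. For Klf2 and Klf4, PLDP mice 22 and 26 stand well above the control mice and mouse 17 stands just above them; the other members differ little.

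The plot of CPM by mouse shows that the spread of Klf2 and Klf4 was in the PLDP group. The coefficient of variation of Klf2 was 7.0% in control mice and 25.7% in PLDP mice, and that of Klf4 was 8.01% and 35.6%. Of all tested features, 7.13% had a spread of log2 CPM in PLDP mice at least as wide as that of Klf2, and 3.11% one as wide as that of Klf4. In the control mice these shares were 44.8% and 38.9%.

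Counting error was small beside the distance of mice 22 and 26 from the controls. Klf2 had 298, 280 and 263 counts in the control mice and 345, 643 and 470 counts in the PLDP mice. The exact Poisson 95% interval, which covers counting error only, was 12.8 to 16.1 CPM in control mouse 2 and 14.4 to 17.8 CPM in PLDP mouse 17. The intervals of these mice overlapped, and that of mouse 17 lay above the interval of control mouse 5 (11.3 to 14.3 CPM). Those of mouse 22 (24.9 to 29.1 CPM) and mouse 26 (22.9 to 27.5 CPM) lay above the interval of every control. Klf4, with 147 to 174 counts in control mice and 193 to 454 in PLDP mice, had an interval of 7.75 to 10.3 CPM in mouse 17, which overlapped those of all 3 control mice, such as 7.17 to 9.71 CPM in control mouse 2. These intervals leave out the spread between mice. Relative to the control mean, Klf2 was 1.21, 2.03 and 1.89 times as high in mice 17, 22 and 26, and Klf4 was 1.15, 2.45 and 1.86 times as high.

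Klf13, a repressor close to Klf9 in sequence that recruits the Sin3a corepressor, was the third member whose groups did not overlap. It was 157.5, 153.6 and 165.9 CPM in control mice and 170.5, 176.3 and 178.8 CPM in PLDP mice. All 3 PLDP mice, mouse 17 included, lay above the controls. The log2 fold change of 0.14 (SE 0.04) was small, and it stayed between 0.12 and 0.17 when single mice were left out. Klf10, an early response gene of transforming growth factor beta, also showed no overlap, with 23.1 to 24.1 CPM in control mice and 24.6 to 25.2 CPM in PLDP mice. Its log2 fold change of 0.07 (SE 0.06) was about as large as its standard error.

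Klf9, which is induced by thyroid hormone and glucocorticoids and restrains neurite growth, overlapped between the diets. It was 207.6, 206.3 and 218.4 CPM in control mice and 211.6, 223.1 and 239.8 CPM in PLDP mice. Mice 22 and 26 exceeded every control, whereas mouse 17 did not. The log2 fold change was 0.09 (SE 0.05). It was 0.13 without mouse 17 and 0.04 without mouse 26. Klf6, which promotes axon growth and is an early response gene of injured tissue, was 35.2, 31.5 and 31.8 CPM in control mice and 32.0, 35.3 and 37.4 CPM in PLDP mice. Its groups overlapped too, with a log2 fold change of 0.09 (SE 0.07) that was 0.15 without mouse 17 and 0.04 without mouse 26.

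The remaining 4 members overlapped between the diets and had log2 fold changes from -0.07 to 0.03. Klf7, needed for the outgrowth of sensory and olfactory axons, was 42.4 to 44.4 CPM in control mice and 40.1 to 46.4 CPM in PLDP mice, a log2 fold change of 0.01 (SE 0.06) that was 0.07 without mouse 17 and changed sign without mouse 22, mouse 26 or control mouse 5. Klf3, a repressor that works through C-terminal binding proteins, was 25.1 to 27.0 CPM and 23.3 to 27.1 CPM, a log2 fold change of -0.06 (SE 0.07), which was -0.02 without mouse 17 and -0.13 without mouse 22. Klf16, which binds GC boxes, was 43.8 to 45.1 CPM and 44.9 to 46.1 CPM, a log2 fold change of 0.03 (SE 0.05). Klf15, a regulator of amino acid breakdown that glucocorticoids induce, was 38.2, 38.4 and 47.2 CPM in control mice and 37.7 to 42.0 CPM in PLDP mice. Control mouse 10 was the highest of the 6 mice for Klf15, and the log2 fold change of -0.07 (SE 0.08) became 0.04 without that mouse.

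In edgeR's quasi-likelihood test, 3 of the 10 members (Klf2, Klf4 and Klf13) were higher in PLDP mice at an unadjusted p under 0.05, and 0 were lower. Over all tested features, 4.91% were called higher and 3.69% lower, or 8.6% in either direction. None of the members had a Benjamini-Hochberg adjusted p under 0.05, which 0.0323% of features had. The number with such a value was also 0 in DESeq2 and limma voom, and it was 2 (Klf2 and Klf4) in edgeR's likelihood ratio test, without the filter on low counts, and without mouse 17. Because the members were picked with this contrast in view, nothing is read from their count against that background. The groups did not overlap for 4 members, all of them above the controls, whereas this held for 7.29% of all features above the controls and 6.9% below them. The median log2 fold change was 0.08 over the 10 members and 0.05 over the 8 members other than Klf2 and Klf4, beside a median of -0.0006 over all tested features.

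The contrast between Klf2 and Klf4 and the other 8 members was also read in each mouse, as mean log2 CPM of Klf2 and Klf4 minus that of the other 8. This difference was -2.23, -2.35 and -2.47 in control mice and -2.08, -1.25 and -1.53 in PLDP mice 17, 22 and 26. Every PLDP mouse was above every control mouse. The group means were -2.35 ± 0.12 (SD, n = 3) and -1.62 ± 0.42 (SD, n = 3), which differ by 0.73 on the log2 scale. An exact permutation test of 3 mice against 3 could not give a two-sided p below 0.1, and no test of this difference was made, since the genes were chosen on this contrast. As a difference of mean fitted fold changes in edgeR, the contrast was 0.79.

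**Figure D2:**
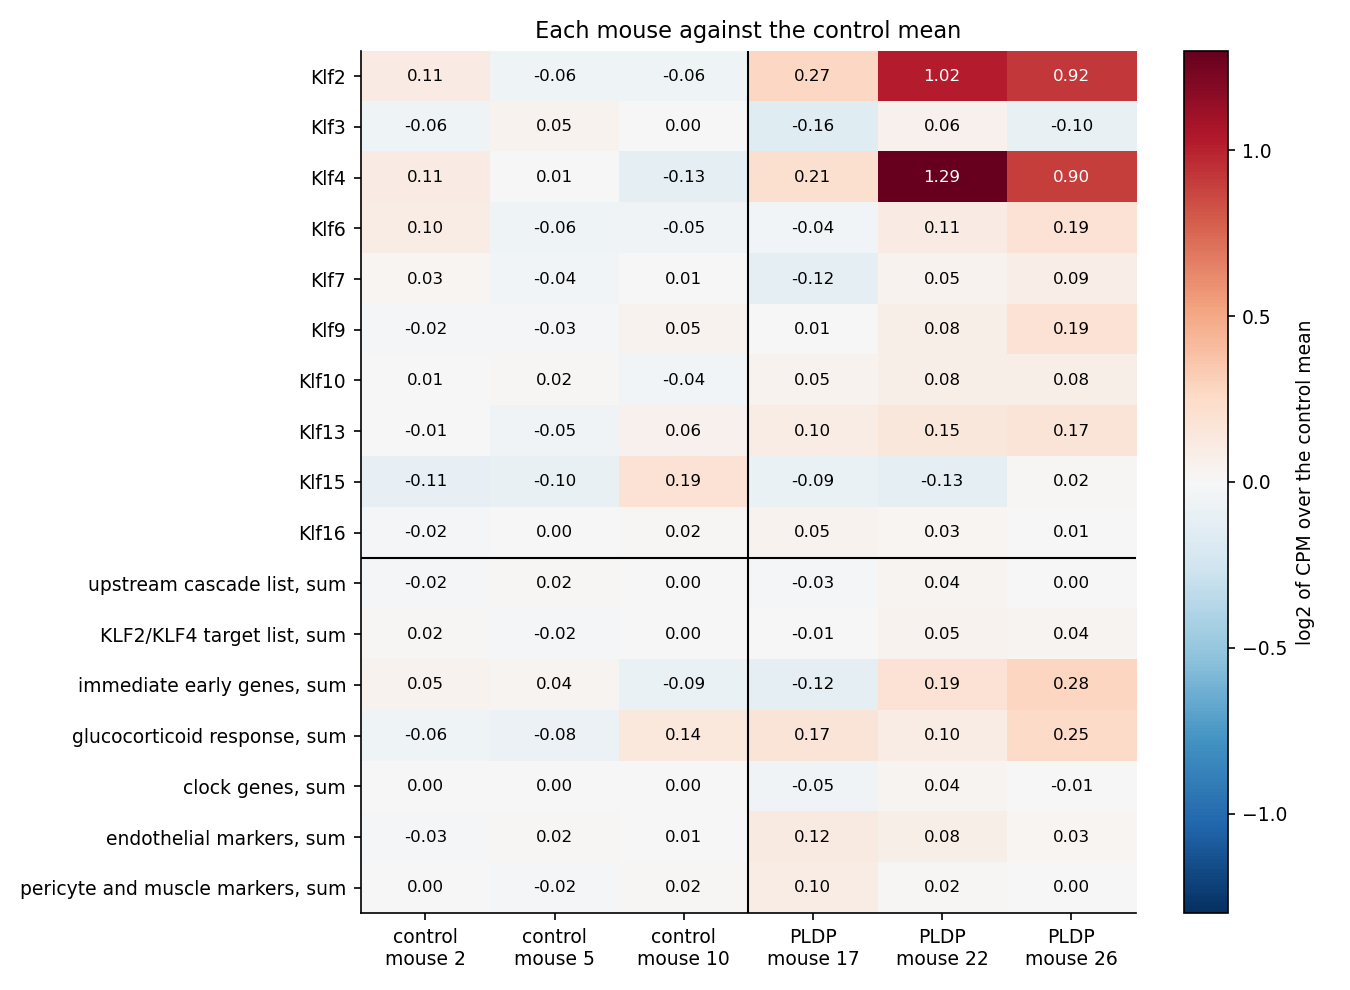
Log2 of each mouse's CPM over the mean of the control mice (color and number), for the 10 Klf members and for the summed CPM of 7 gene lists (the upstream cascade, KLF2 and KLF4 targets, immediate early, glucocorticoid response, clock, endothelial, and pericyte and muscle genes), with mice in columns. Klf2 reaches 1.02 and 0.92 and Klf4 1.29 and 0.90 in mice 22 and 26. The 7 sums, which are weighted to their most abundant genes, lie within -0.12 to 0.28.

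The map of deviations from the control mean sets the members beside 7 of the gene lists described later. A sum is weighted to its most abundant genes, and single genes of these lists moved further than the sums. Zbtb16 was 36.3 and 36.9 CPM in mice 22 and 26 against a control mean of 18.2 CPM. Ccn1 was 14.1 and 14.0 CPM against 7.5 CPM. Sums that the map leaves out went further, to -0.42 for choroid plexus markers in mouse 17 and -0.55 for blood markers in control mouse 5. The oligodendrocyte sum was -0.15 and -0.14 in mice 22 and 26 and 0.02 in mouse 17, and its part in the Klf2 and Klf4 values was not tested. Among the other 8 members no mouse deviated by more than 0.19 in either direction. The largest of these deviations were 0.19 for Klf15 in control mouse 10, and 0.19 for both Klf6 and Klf9 in PLDP mouse 26.

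Levels of different members were compared as CPM per kilobase of annotated exon. In control mice the order ran from Klf9 (43.8 ± 1.38, SD, n = 3) and Klf13 (21.1 ± 0.834) through Klf16 (16.6 ± 0.241) and Klf15 (14.8 ± 1.84) to Klf6 (7.47 ± 0.473), Klf2 (7.18 ± 0.502), Klf10 (5.68 ± 0.134), Klf7 (5.35 ± 0.127), Klf4 (2.55 ± 0.204) and Klf3 (2.32 ± 0.088). The ranges of Klf16 and Klf15, of Klf6 and Klf2, and of Klf4 and Klf3 overlapped in the control mice, and those of the other neighbours did not. On this scale Klf9 exceeded 93.4% of 17905 tested genes, Klf2 61.5% and Klf4 37.3%. In PLDP mice Klf2 reached 12.3 ± 3.17 and Klf4 4.65 ± 1.65 (SD, n = 3). Klf2 lay above Klf6 in each PLDP mouse, with 8.68, 14.6 and 13.6 against 7.28, 8.05 and 8.51.

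**Figure D3:**
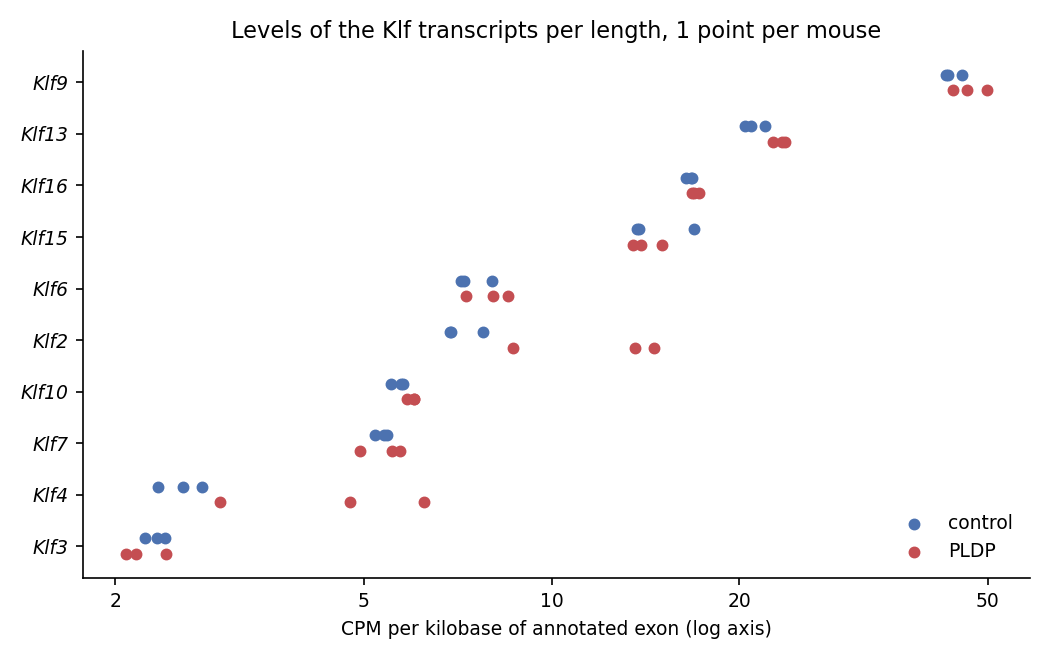
CPM per kilobase of annotated exon (log axis) of the 10 Klf members, ordered by the control mean, with 1 point per mouse in each diet. Klf9 is the highest in all 6 mice at 42.8 to 49.8, and Klf4 lies at 2.34 to 2.75 in control mice and 2.94 to 6.24 in PLDP mice.

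As the plot of levels per length shows, Klf9 and Klf13 together made up 48.8% to 51.5% of the summed level of the 10 members in every mouse. Klf2 and Klf4 together made up 8.34%, 7.64% and 7.06% in control mice and 8.98%, 14.6% and 12.6% in PLDP mice 17, 22 and 26. These shares and the lower part of the order depended on the length that was used. Per coding length, Klf9 and Klf13 made up 65.9% to 67.5%, and Klf2 and Klf4 made up 2.86%, 2.62% and 2.42% in control mice and 3.09%, 5.21% and 4.41% in PLDP mice. Divided by coding length, Klf2 (12.5) and Klf4 (5.37) were the lowest in control mice, and Klf9 (288), Klf13 (165) and Klf16 (59.0) remained the highest.

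The counts of 4 members could include reads of annotated neighbours on the same or the opposite strand, since the strand setting of the counting is not given in the sources used here. Klf3 (ENSMUSG00000029178) overlaps Gm20033 and C230096K16Rik, which had 740 and 152 counts over the 6 mice. Klf13 (ENSMUSG00000052040) overlaps Gm27252, with 71 counts, and Klf9 (ENSMUSG00000033863) overlaps Mir1192, with 4. Klf7 overlaps 3 annotated genes. Klf2 (ENSMUSG00000055148) on chromosome 8 from 72319033 to 72321656 and Klf4 (ENSMUSG00000003032) on chromosome 4 from 55527143 to 55532466, in build GRCm38, overlap no other annotated gene.

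Of 16 further genes of the KLF and SP family, which share the zinc finger domain, 13 were tested. None was called higher, and 1 was called lower, beside 4.91% and 3.69% of all features, the shares against which the calls in each list below are to be read. This was Sp4, a neuronal activator that binds GC boxes, at 31.6, 30.8 and 31.2 CPM in control mice and 26.2, 27.9 and 28.4 CPM in PLDP mice (log2 fold change -0.18, SE 0.06, adjusted p = 0.399). All PLDP mice lay below the controls for Sp4. The number called lower was 3 without mouse 22, 2 without control mouse 5, and 2 with library size only or without the filter. Sp3, which acts at the same sites, had a log2 fold change of -0.12 (SE 0.06, adjusted p = 0.583), and Klf12, a repressor, one of -0.03 (SE 0.07), which was 0.06 without mouse 17. The median over the 13 genes was -0.03.

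**Figure D4:**
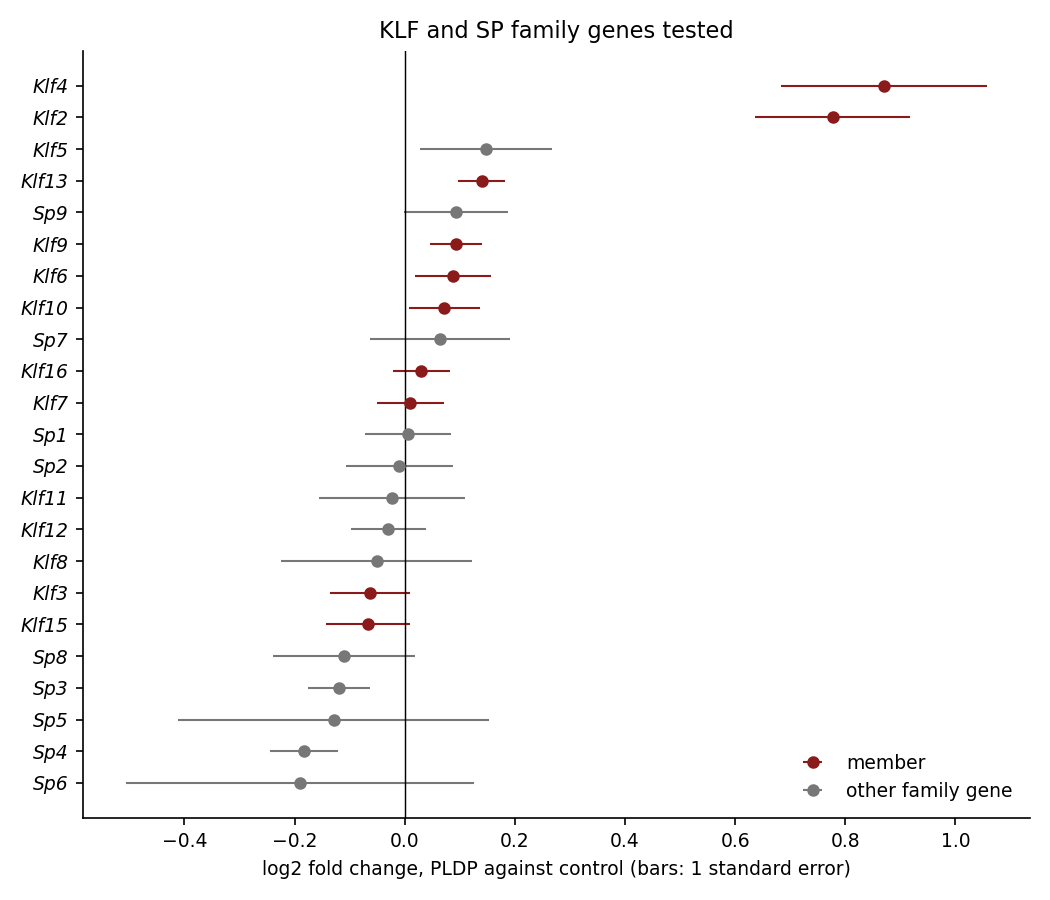
Log2 fold change between PLDP and control mice (horizontal axis, bars 1 standard error) of the 23 KLF and SP genes that were tested, ordered by value. Klf4 at 0.87 and Klf2 at 0.78 stand apart from the rest, which lie between -0.19 and 0.15.

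The plot of the whole family places the other 8 members within the range of the family genes that were not chosen.

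Upstream of Klf2 and Klf4, the kinase cascade and the cerebral cavernous malformation complex that holds it back gave 11 tested genes, of which 0 were called higher and 2 lower. Mef2a, a MEF2 factor that activates Klf2, was 161.9 ± 2.95 CPM in control mice and 150.9 ± 2.15 CPM in PLDP mice (SD, n = 3), a log2 fold change of -0.10 (SE 0.04, adjusted p = 0.472) whose call was lost without control mouse 5 or mouse 26. Pdcd10, of the malformation complex, had a log2 fold change of -0.17 (SE 0.08, adjusted p = 0.561), which was -0.24 without mouse 17 and -0.09 without control mouse 5. It was not called without control mouse 5, mouse 22 or mouse 26, in DESeq2 or with upper-quartile factors. Of the cascade, 0 genes were called lower without control mouse 5 or mouse 26, and 2 were called higher without mouse 17. The kinase genes themselves did not pass the test, among them Map3k3 at 0.09 (SE 0.07) and Mapk7, which encodes ERK5, at -0.03 (SE 0.07). The median of the whole list was 0.03, and its summed CPM ranged from 889.6 to 916.0 in control mice and from 880.2 to 928.1 in PLDP mice. The list joins the cascade with the complex that holds it back, so its median and sum do not show a direction of signaling. Of the 12 genes listed, Piezo1 was not found by name.

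Downstream, 1 of 10 genes known as endothelial targets of KLF2 and KLF4 was called higher and 0 were called lower, with a median log2 fold change of 0.07. The list was not split into genes that these factors raise and genes that they lower. Its counts, median and sum therefore do not show whether the targets followed Klf2 and Klf4. The number called higher was 2 without mouse 17 or control mouse 10, and 1 was called lower without mouse 26 or control mouse 2. Thbd, encoding the anticoagulant receptor thrombomodulin, was 13.6, 13.2 and 15.2 CPM in control mice and 17.4, 17.4 and 18.6 CPM in PLDP mice 17, 22 and 26 (log2 fold change 0.35, SE 0.08, adjusted p = 0.19). Unlike Klf2 and Klf4, Thbd was as high in mouse 17 as in mouse 22. Nos3, the endothelial nitric oxide synthase, was 10.3 ± 0.791 CPM and 11.1 ± 0.726 CPM (SD, n = 3), and its groups overlapped (log2 fold change 0.10, SE 0.10, adjusted p = 0.825, range 0.04 to 0.16 with 1 mouse left out).

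Among 12 genes for cofactors and ubiquitin ligases that bind KLF proteins, 1 was called higher and 1 lower, with a median of -0.02. The acetyltransferase gene Crebbp was 54.3 ± 1.24 CPM in control mice and 63.0 ± 4.25 CPM in PLDP mice (SD, n = 3; log2 fold change 0.21, SE 0.06, adjusted p = 0.256). The deacetylase gene Hdac2 had a log2 fold change of -0.11 (SE 0.05, adjusted p = 0.506) and was not called without control mouse 2, mouse 22 or mouse 26. Of 6 amino acid catabolism and related genes that KLF15 is known to control, 4 were tested, and 1, the branched-chain aminotransferase Bcat2, was called higher (log2 fold change 0.21, SE 0.08, adjusted p = 0.456). Bcat2 was not called without control mouse 2 or mouse 17 or in DESeq2, and Klf15 itself overlapped between the diets. The number of these genes called higher was 2 without mouse 22 or with upper-quartile factors.

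Markers of endothelial cells were read beside Klf2 and Klf4, since in whole tissue fewer cells of a type and less RNA per cell cannot be told apart. Counts of a whole brain also do not place a transcript in a cell type, so the other 8 members are not called neuronal here. All 25 endothelial markers were tested. Of these, 5 were called higher and 0 lower, where 4.91% and 3.69% of all features were, and 8 did not overlap between the diets, where 14.2% of all features did not. Their median log2 fold change was 0.13, and the list was not tested against other genes. The number called higher was 3 without control mouse 2, and the number called lower was 2 without mouse 17 or control mouse 10 and 1 without mouse 22. The adhesion molecule Pecam1 was 16.6 ± 0.565 CPM in control mice and 19.7 ± 0.954 CPM in PLDP mice (SD, n = 3; log2 fold change 0.25, SE 0.08, adjusted p = 0.336). The tight junction gene Cldn5 was 28.04 ± 2.04 CPM and 28.6 ± 3.73 CPM, a log2 fold change of 0.03 (SE 0.08) that was -0.08 without mouse 17 and -0.02 without control mouse 10. The summed CPM of the 25 markers was 555.8 to 576.6 in control mice and 581.8 to 618.1 in PLDP mice.

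The endothelial sum was highest in mouse 17 (618.1 CPM), the PLDP mouse in which Klf2 and Klf4 were lowest. It was 601.0 CPM in mouse 22 and 581.8 CPM in mouse 26. Klf2 CPM as a percentage of this sum was 2.58%, 2.20% and 2.23% in control mice and 2.59%, 4.49% and 4.32% in PLDP mice 17, 22 and 26. For Klf4 the percentages were 1.51%, 1.36% and 1.25% in control mice and 1.45%, 3.17% and 2.49% in PLDP mice. Set against the endothelial sum, mice 22 and 26 remained above every control, and mouse 17 lay at the upper end of the controls. The part of endothelial cells in the Klf2 and Klf4 values was not tested. Of 12 pericyte and smooth muscle markers, 1 was called higher, the pericyte gene Rgs5 (log2 fold change 0.11, SE 0.05, adjusted p = 0.513, not called without control mouse 2, control mouse 5 or mouse 26), and the median was 0.02. The pericyte and muscle list had 2 called higher without mouse 22 and 1 called lower without mouse 17.

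Several Klf members are also known as early response or hormone response genes, so those lists were read in the same mice. Of 20 immediate early genes, which neurons and other cells switch on within minutes of a stimulus, 6 were called higher and 0 lower, beside 4.91% and 3.69% of all features, with a median of 0.13. Nr4a2, an orphan nuclear receptor gene and the one with the smallest p, was 37.1, 33.8 and 36.3 CPM in control mice and 39.0, 44.4 and 42.0 CPM in PLDP mice (log2 fold change 0.23, SE 0.06, adjusted p = 0.291). All 3 PLDP mice, mouse 17 included, lay above the controls for Nr4a2. Ccn1, a matrix protein gene that is quickly induced, was 8.56, 7.49 and 6.45 CPM in control mice and 6.97, 14.1 and 14.0 CPM in PLDP mice (log2 fold change 0.63, SE 0.19, adjusted p = 0.326, and 0.90 without mouse 17), and it was not called in DESeq2. Arc, a synaptic gene, was 204.3 ± 12.8 CPM and 244.8 ± 57.4 CPM (SD, n = 3; log2 fold change 0.26, SE 0.11, adjusted p = 0.513). Without mouse 17 the log2 fold change of Arc was 0.43 and without mouse 26 it was 0.10, and Arc was not called without control mouse 2, control mouse 10, mouse 22 or mouse 26, nor in DESeq2 or limma voom. For Ccn1 and Arc, unlike Nr4a2, mice 22 and 26 were high and mouse 17 was within or below the control range.

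The summed CPM of the immediate early genes was 1359 to 1489 in control mice, 1325 in mouse 17, 1648 in mouse 22 and 1752 in mouse 26. Mouse 17 was thus the lowest of all 6 mice in this sum, though not in each of its genes, and the lowest PLDP mouse in Klf2 and Klf4. Mice 22 and 26 were the highest in the sum and in Klf2 and Klf4. The number of immediate early genes called higher was 13 without mouse 17, a fit that called 6.86% of all features higher, and 2 without either mouse 22 or mouse 26. It was 3 without control mouse 10, 1 in DESeq2 and 2 in limma voom. The part of these genes in the Klf2 and Klf4 values was not tested.

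Of 15 glucocorticoid response genes, 8 were called higher and 0 lower (1 lower without mouse 17), beside 4.91% and 3.69% of all features, with a median of 0.10. The metallothionein gene Mt2 was 91.9, 91.9 and 99.2 CPM in control mice and 129.9, 108.7 and 126.5 CPM in PLDP mice (log2 fold change 0.37, SE 0.06, adjusted p = 0.0369), the only gene of the list with an adjusted p under 0.05. In Mt2, mouse 17 was the highest of all. Zbtb16, a zinc finger repressor, was 19.5, 16.5 and 18.6 CPM in control mice and 21.1, 36.3 and 36.9 CPM in PLDP mice (log2 fold change 0.79, SE 0.15, adjusted p = 0.0785, and 1.01 without mouse 17), with mouse 17 near the controls as for Klf2. Hif3a, encoding a hypoxia-inducible factor subunit, had a log2 fold change of 0.81 (SE 0.15, adjusted p = 0.0785). Sgk1 and Arrdc2 were not called in the fit of all mice, with log2 fold changes of 0.06 and -0.14. Both were highest in control mouse 10. The summed CPM of the list was 707.2, 697.9 and 813.5 in control mice 2, 5 and 10. It was 831.8, 793.7 and 877.1 in PLDP mice 17, 22 and 26. The groups overlapped through control mouse 10, which was also the highest mouse for Klf15. Klf9, Klf13 and Klf15, which glucocorticoids are known to induce, had log2 fold changes of 0.09, 0.14 and -0.07.

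Of 16 circadian clock genes, the rhythm of which Klf9, Klf10 and Klf15 are known to follow in several tissues, 3 were called higher and 4 lower, beside 4.91% and 3.69% of all features. Nr1d1, a repressor of the clock, had a log2 fold change of 0.16 (SE 0.06, adjusted p = 0.424) that was 0.08 and not called without mouse 22, where 1 clock gene was called higher. Per3, a clock component, had one of -0.17 (SE 0.05, adjusted p = 0.321). The median of the list was 0.02, and Per1 is counted both here and among the glucocorticoid response genes.

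The genes whose log2 CPM followed Klf2 most closely over the 6 mice were Ncan (Pearson r = 0.995), Nrcam (0.991), Zbtb16 (0.989), Syt7 (0.986) and Zc3h13 (0.985). For Klf4 they were Hnrnpul1 (0.989), Elavl1 (0.988), Ncan (0.988), Trp53rkb (0.984) and Klf2 (0.981). These are the highest coefficients among tested features with an ordinary gene symbol, over 6 points that share the split between mice 22 and 26 and the rest. Features named as predicted genes, clones, pseudogenes or microRNAs, and unnamed ones, were left out of the ranking. The coefficients are given as a description. Ncan, a proteoglycan of the brain matrix, was 134.3 to 139.1 CPM in control mice and 141.7, 156.1 and 152.9 CPM in PLDP mice, a far smaller change in proportion (log2 fold change 0.14, SE 0.04) than that of Klf2.

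**Figure D5:**
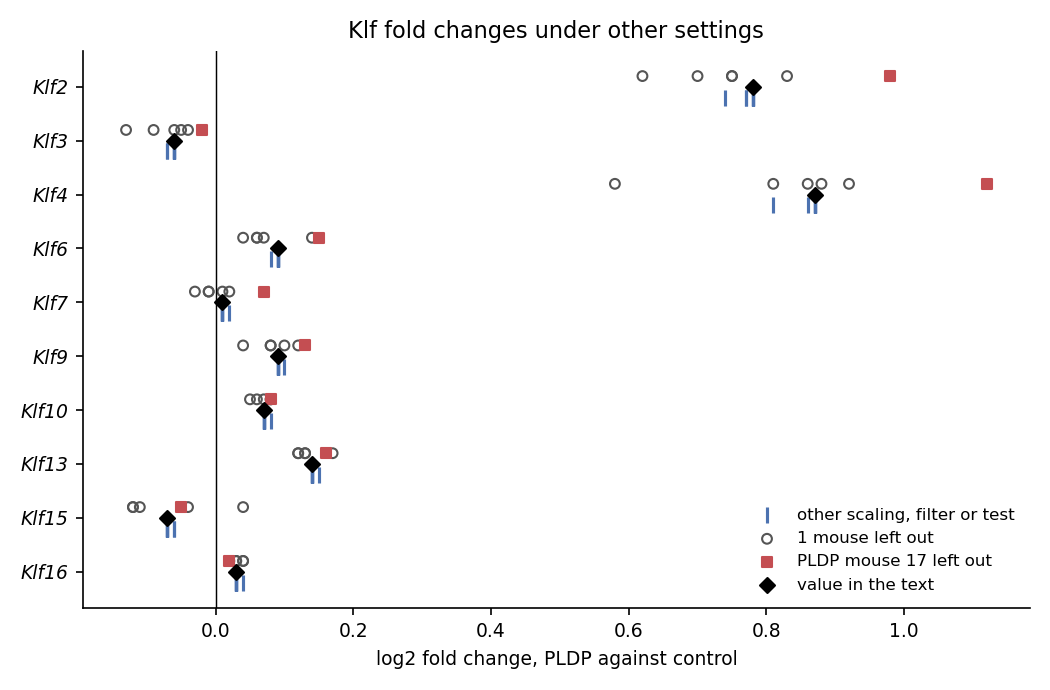
Log2 fold change of each Klf member (horizontal axis) as reported and under the 14 other settings of scaling, filter, test and mice left out. Klf2 stays between 0.62 and 0.98 and Klf4 between 0.58 and 1.12, and the other members stay between -0.13 and 0.17.

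The plot of fold changes by setting shows that the members other than Klf2 and Klf4 moved little in absolute terms. Without mouse 17, Klf6 and Klf9 were called beside Klf2, Klf4 and Klf13, which made 5 members, in a fit that called 6.86% of all features higher (1293). As the members were chosen on this contrast, calls that recur over settings are no sign of stability.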

How the data were processed

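Polyadenylated RNA of 6 whole brains had been sequenced from stranded libraries. The authors deposited whole-number read counts per gene for each mouse, not normalized. The submitters' processing notes name cutadapt 2.9, HISAT2 2.2.0, featureCounts, DESeq2 1.6.3 and the builds GRCh38 and GRCm38, without a role for each. The annotation, the strand setting and the treatment of shared reads are not given in the sources used here. Gene symbols, lengths and overlaps were taken from GENCODE M21 (54777 of 55034 Ensembl identifiers found), and 5320 numbered features without an identifier were kept in the library sizes and tests. Numbers of mice follow the labels, and each mouse was 1 replicate.

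Features with low counts were removed with edgeR 4.0.16 (filterByExpr, minimum count 10, minimum total count 15), scaled by TMM and tested for diet with the quasi-likelihood test in R 4.3.3, with Benjamini-Hochberg adjustment over the 18580 features. Called means an unadjusted p under 0.05. The SE of a log2 fold change was its absolute value divided by the square root of the F statistic of the quasi-likelihood test. It therefore comes from the test and is no separate estimate of spread. Log2 CPM used a prior count of 2. Counting intervals are exact Poisson intervals at 95%. Alternatives were relative log expression, upper-quartile and no scaling factors, no filter, at least 10 counts in every mouse, DESeq2 1.42.0, limma 3.58.1 voom, edgeR's likelihood ratio test, prior counts of 0.5 and 5, coding length, and leaving out each mouse.

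The members and gene lists were chosen with earlier results of these data known. The text names all members, the other KLF and SP genes that were called or among the 3 highest in CPM, genes among the up to 5 of each list with the smallest unadjusted p under 0.05 (or the smallest p if none passed), Nos3 and Cldn5, and the 5 genes with an ordinary symbol and the highest correlation with Klf2 and with Klf4. Map3k3, Mapk7, Sgk1 and Arrdc2 were chosen for naming after their values were seen. Per1 is named for being in the clock and glucocorticoid lists, and Piezo1 because it was not found.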

Additional observations from a re-analysis of the deposited data

How the results depend on the processing

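Scaling, filter and test settings left 78 of 80 member fold changes on the same side of zero and of the threshold, and 2 (both of Klf9) passed it. Of 360 fold changes of other named genes under these settings, 344 stayed, 14 lost their call, mostly in DESeq2 or limma voom, and 2 gained one. Over all features, DESeq2 called 564 higher and 362 lower, where edgeR called 913 and 685. Without the filter 1046 were lower, which was 2.9% of the 36099 features then tested, against 3.69% of 18580 with it. DESeq2 called 1 and limma voom 2 of the immediate early genes higher. Without the filter, 2 endothelial markers and 2 further KLF and SP genes were called lower, and with library size only 2 of these KLF and SP genes. With 1 mouse left out, the ranges were 640 to 1293 features higher and 493 to 1072 lower, 3 to 5 members higher, 3 to 7 endothelial markers higher and 0 to 2 lower, 2 to 13 immediate early genes higher, 0 to 1 glucocorticoid response genes lower, and 1 to 3 further KLF and SP genes lower. The sign changed for Klf7 (range -0.03 to 0.07), Klf15 (-0.12 to 0.04), Klf12 (-0.11 to 0.06) and Cldn5 (-0.08 to 0.09). The cause was not tested. The mean fitted fold change of Klf2 and Klf4 minus that of the other 8, 0.79 on the log2 scale over all mice, ranged from 0.57 to 0.98.

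No paired analysis was possible because the 6 mice carry 6 different numbers. With 3 mice per diet, and Klf2 and Klf4 at 147 to 643 counts per mouse, counting intervals limit the precision of a single mouse and leave out the spread between mice.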

Other observations

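Markers of further cell types were counted in the same way, beside the 4.91% of all features called higher and 3.69% called lower. Of 8 choroid plexus markers, 0 were called higher and 3 lower, with a median log2 fold change of -0.17. The transthyretin gene Ttr was 708.4 ± 25.9 CPM in control mice and 607.4 ± 67.7 CPM in PLDP mice (SD, n = 3; log2 fold change -0.22, SE 0.06, adjusted p = 0.26). Mouse 17 was the lowest at 535.4 CPM, and the log2 fold change was -0.14 without it. Of 10 oligodendrocyte markers, 4 were called lower, among them the lineage factor Olig2 (log2 fold change -0.20, SE 0.07, adjusted p = 0.434, not called without control mouse 5), with a median of -0.06. The number called was 0 without control mouse 5 and 2 without mouse 26. The astrocyte list had 2 of 11 called lower, including the growth factor receptor Fgfr3 (log2 fold change -0.21, SE 0.05, adjusted p = 0.136), and a median of -0.02. Without mouse 17, 4 were lower and 1 was higher, and 1 was lower without mouse 26 or control mouse 10.

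Of 12 microglial markers 1 was called lower, the purine receptor P2ry12 (log2 fold change -0.17, SE 0.08, adjusted p = 0.533), which was -0.09 without control mouse 5 and not called without that mouse, mouse 17 or mouse 22, or in DESeq2. Of 9 neuronal markers, 5 had a log2 fold change above 0 and 1 was called lower, the neurofilament gene Nefl (-0.09, SE 0.04, adjusted p = 0.463), which was not called without control mouse 2, and 2 were lower without mouse 17. None of 9 meningeal or 7 tested blood markers was called, with medians of -0.03 and -0.09. Without control mouse 5, however, 5 blood and 2 meningeal markers were called lower, and without mouse 26, 1 meningeal marker. Without the filter on low counts, 1 blood marker was called lower. The smallest p of these lists belonged to the growth factor gene Igf2 (log2 fold change 0.38, SE 0.22, adjusted p = 0.659, range 0.17 to 0.52 with 1 mouse left out) and the neutrophil gene S100a9 (-0.50, SE 0.38, adjusted p = 0.756, range -0.83 to -0.12). The summed CPM of the blood markers was 586.4, 326.8 and 524.2 in control mice 2, 5 and 10 and 494.1, 458.9 and 401.8 in PLDP mice. The groups overlapped through control mouse 5 alone, as the other control mice lay above every PLDP mouse. The part of these differences in the values of the Klf members was not tested.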
